A study of Rattus norvegicus with 6 samples.

Results

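Autophagy and lysosome genes were measured in rat aortic smooth muscle cells (RASMCs) that had been challenged with citrullinated histone H3 and double-stranded DNA, the main components of the chromatin released in extracellular traps. The 39 genes were chosen by symbol, for the known function of their products and not by a measured value. Earlier results of these data were known at that time. Of the 39, 24 encode the machinery that builds autophagosomes, and 15 encode lysosomal enzymes and membrane proteins. All 39 were found among the 22574 gene symbols of the count table, and 38 of them were among the 12591 genes with enough counts to be tested. A single member, the lysosomal protease gene Ctsl, passed the test. It rose 6.28-fold, from controls that were widely spread (coefficient of variation 23.8%) and whose replicates 1 and 2 had counts ending in 00. The other 37 members tested had log2 fold changes between -0.13 and 0.15.

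The cells were a primary culture of aortic smooth muscle of male Sprague-Dawley rats, prepared after the adventitia and the endothelium had been taken off. Of the 6 mRNA libraries, 3 came from cells given CitH3+dsDNA and 3 from control cells (Ctr) given bovine serum albumin. The time between challenge and harvest was not given in the sources used here. The study's reporting summary says of its in vitro experiments in general that replicates were wells seeded with cells of the same rat. It does not name the RNA sequencing there. The errors and p-values given here cover the spread between these cultures and library preparations, and cannot be taken to cover that between animals. RNA was taken from the whole culture, in which fewer cells of a type and less RNA per cell cannot be told apart. Total counts were 17573905 to 18009324 in the CitH3+dsDNA libraries and 18031326 to 18742395 in the controls. No pair of replicates agreed within counting noise, with chi-square values per gene from 3.27 to 6.66.

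All 9 smooth muscle markers passed the filter, and 4 of them (Acta2, Tagln, Cnn1 and Smtn) fell after CitH3+dsDNA, with a summed level of 7511 to 8020 CPM (counts scaled to a common library size after TMM normalization) against 10214 to 10995 CPM in controls. Most of that sum came from Acta2 and Tagln. The other 5 markers were not called, among them Myh11 at 0.061 on the log2 scale and Cald1 at 0.16 (adjusted p = 0.102 from edgeR), whose challenged libraries all lay above the controls. The defining leukocyte genes Ptprc and Itgam had at most 1 count in any library. The 11 macrophage markers summed to 75.2 to 77.0 CPM after CitH3+dsDNA and 75.6 to 79.2 CPM in controls. Cd14, at 921 to 994 counts per library, and Csf1r, at 296 to 374, made up most of these sums. By edgeR none of the 6 macrophage markers tested was called (adjusted p-value below 0.05), and none had an unadjusted p-value below that threshold. The others had too few counts to be tested. Of these, Aif1 had 8, 9 and 9 counts after CitH3+dsDNA and 2, 2 and 3 in controls, without overlap, while Laptm5 and Fcer1g overlapped between the groups. The endothelial gene Kdr had at most 1 count in a library, while Egfl7 had 973 to 1102 and Cdh5 73 to 105. The 7 endothelial markers, mostly Egfl7, summed to 62.4 to 67.5 CPM against 67.8 to 69.9 CPM. The 6 fibroblast markers, mostly Thy1, summed to 1089 to 1110 CPM against 1110 to 1152 CPM.

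Autophagy encloses cytoplasm in a double membrane and delivers it to the lysosome, where acid hydrolases break it down. The ULK kinases start the process, the class III PI3-kinase marks the growing membrane, a conjugation system attaches the ATG8 proteins (LC3 and GABARAP) to it, and receptors such as p62 bind cargo to LC3. TFEB and TFE3 are transcription factors that enter the nucleus when lysosomal function or nutrients fall and raise transcription of many genes of both sets. In smooth muscle, autophagy is known for its links to contractile state, senescence and atherosclerosis, and secreted lysosomal cathepsins cut elastin and collagen of the vessel wall.

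Of the 38 members tested, 1 was called by the quasi-likelihood test of edgeR, at a Benjamini-Hochberg adjusted p-value below 0.05 over all genes tested, against 2.2% of all 12591 genes. No member was called lower, against 0.262% of all genes. At an unadjusted p-value under 0.05 there were 3 members, Ctsl, Atg12 and Atg7, against 13.9% of all genes. This count depended on single libraries, as it was 10 of 38 without control replicate 3 and 1 without CitH3+dsDNA replicate 1. The 13.9% comes from the fit of all libraries. The share of all genes at that unadjusted threshold in the smaller fits is not given here, so these counts have no share to be read against. The number of all genes called at an adjusted p-value below 0.05, 277, also moved, to 357 and 164 in the same fits. The groups did not overlap for 5 members, against 19.1% of all genes. The 3 CitH3+dsDNA libraries all lay above the 3 controls for 4 members (Ctsl, Atg12, Ulk2 and Tfeb), against 10.7% of all genes, and all below them for 1 member (Atg7), against 8.43% of all genes. These are counts over a chosen list, and they were not tested against the shares of all genes.

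The data bounded the size of the changes that were not called. For the 37 such members the median standard error of the log2 fold change was 0.044, and their 95% intervals reached no lower than -0.30 and no higher than 0.32, which are folds of 0.812 and 1.25. The interval lay within 0.2 of 0 on the log2 scale for 30 of the 37 genes and within 0.3 for 36. The exception was Tfeb. The plot of fold changes gives the interval of each member.

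**Figure D1:**
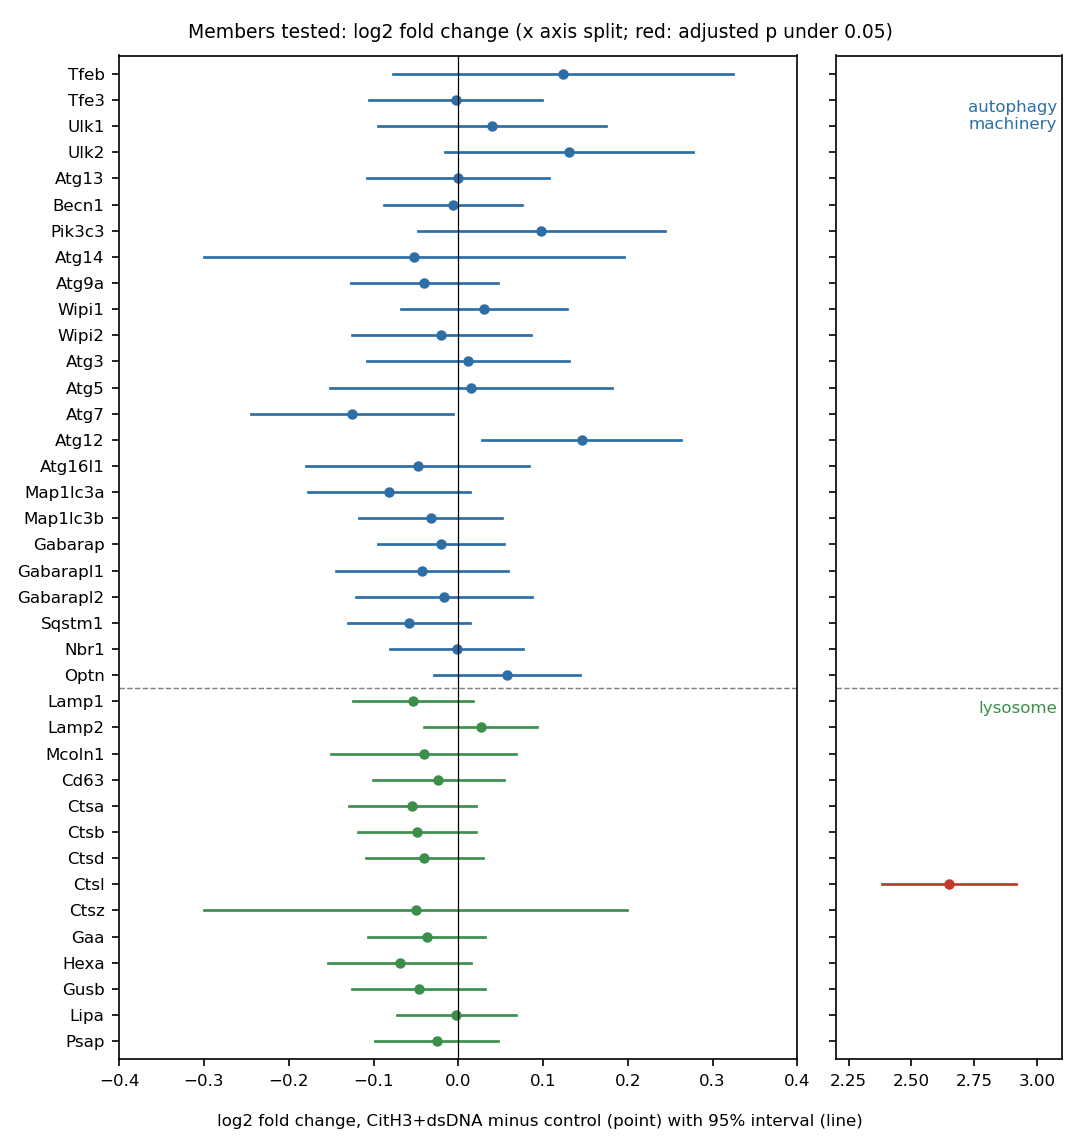
Log2 fold change of CitH3+dsDNA over control (x axis, split between 0.4 and 2.2) for the 38 members tested, as a point with its 95% interval (n = 3 libraries per group); autophagy members are blue, lysosomal members green, and red marks an adjusted p-value under 0.05. Ctsl alone is red, at 2.65, while the other points lie between -0.13 and 0.15.

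The 24 autophagy members were all tested and none was called, and the 24 had a median log2 fold change of -0.0047, beside -0.0013 over all genes. Of the 24, 15 lay below 0 and 9 above, a split that moved with the scaling, as 10 lay below 0 and the median became 0.015 when libraries were scaled by their totals alone. The median was also above 0 without CitH3+dsDNA replicate 1 (0.0029) and without control replicate 2 (0.0019). DESeq2 and limma-voom called none of them either, and 2 (Atg12 and Atg7) had an unadjusted p-value under 0.05 in edgeR. Their summed level was 3862 to 3931 CPM after CitH3+dsDNA and 3875 to 4033 CPM in controls, ranges that overlapped.

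Tfeb, the master regulator of lysosomal genes, was the less precisely measured of the regulators, with counts of 209, 201 and 224 after CitH3+dsDNA and 196, 210 and 187 in controls. Scaled to library size these were 11.5, 11.4 and 12.3 CPM against 10.98, 11.3 and 10.1 CPM. The CitH3+dsDNA values lay just above the controls with little room between them, and the log2 fold change of 0.12 (95% interval -0.077 to 0.32) was not called (adjusted p = 0.594 from edgeR). Tfe3, its close relative, had 96.3, 98.1 and 104 CPM against 105, 98.3 and 95.5 CPM in controls. The groups overlapped fully, with a log2 fold change of -0.0031 (95% interval -0.11 to 0.099). These are RNA levels, and the position of either protein in the cell was not measured here.

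Members were also examined for the DNA letters that TFEB and TFE3 are known to bind. RefSeq promoters of the rat assembly GRCr8, from 250 bases before to 50 bases after each gene's start, were at hand for 33 of the 39 members. The E-box CACGTG occurred in 8 of the 33 (24.2%), and in 6.42% of all 33469 promoters. Its longer form GTCACGTG, which holds CACGTG and was read on both strands, occurred in 6 members (18.2%) and in 1.85% of all promoters. The palindrome TCACGTGA, which overlaps both, occurred in 4 (12.1%) and in 0.777%. All promoters were counted by entry, whether or not the gene is expressed in these cells, and members by symbol, so the shares come from unlike sets. The letters were taken from known TFEB and TFE3 sites, and these factors are known to act on many genes of both sets. A larger share among the members can follow from that choice and is no finding of these data. A match is a description and not a binding site. The stretches before the start of 5 of these genes are shown because they hold GTCACGTG before the start, in capitals (on either strand, with TCACGTGA where it adds a base), and because the RNA of none of the 5 was called different. The sixth, Atg14, holds it only after the start. They are given 5′ to 3′ on the strand of the gene, from GRCr8, for Lamp1 at chr16:83075074-83075129 (minus strand), Ctsd at chr1:206968822-206968851 (minus), Mcoln1 at chr12:6358214-6358257 (plus), Gaa at chr10:105028268-105028315 (plus) and Atg3 at chr11:69159281-69159321 (minus).
Lamp1: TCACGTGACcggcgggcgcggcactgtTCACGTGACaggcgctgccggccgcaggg
Ctsd: tccgcccctcgcccgcgtcTCACGTGACcc
Mcoln1: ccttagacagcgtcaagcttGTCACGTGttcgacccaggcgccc
Gaa: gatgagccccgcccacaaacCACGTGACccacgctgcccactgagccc
Atg3: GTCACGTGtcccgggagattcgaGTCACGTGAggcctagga

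Among the initiation genes, Ulk1 and Ulk2 encode the kinases that start autophagosome formation, and Atg13 encodes a scaffold of the same complex. Ulk2 had 24.4, 23.6 and 25.1 CPM after CitH3+dsDNA and 21.6, 21.7 and 23.5 CPM in controls. The lowest challenged library lay just above the highest control, and the log2 fold change of 0.13 (95% interval -0.016 to 0.28) was not called (adjusted p = 0.425 from edgeR). Ulk1 overlapped between the groups, at 0.04 on the log2 scale (95% interval -0.094 to 0.17), and so did Atg13, with 51.0, 51.2 and 51.2 CPM against 53.2, 48.3 and 52.0 CPM.

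The class III PI3-kinase complex makes the lipid PI3P on the growing membrane. Becn1, which encodes its beclin 1 subunit, had 169, 177 and 176 CPM after CitH3+dsDNA and 173, 180 and 171 CPM in controls. These ranges covered each other, with a log2 fold change of -0.0063 (95% interval -0.087 to 0.075). Pik3c3, the gene of the catalytic subunit VPS34, had a log2 fold change of 0.098 (95% interval -0.047 to 0.24), and Atg14, whose product targets the complex to autophagosomes, one of -0.052 (95% interval -0.30 to 0.20) at 131 to 159 counts per library. Atg9a, which encodes the membrane protein on vesicles that seed the autophagosome, and Wipi1 and Wipi2, which encode readers of PI3P, lay between -0.04 and 0.03 on the log2 scale, and all 3 overlapped between the groups.

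The conjugation genes held both autophagy members with an unadjusted p-value under 0.05, in opposite directions. Atg12 encodes a ubiquitin-like protein that is attached to ATG5, and its levels were 59.9, 52.9 and 55.4 CPM after CitH3+dsDNA and 51.2, 49.0 and 51.9 CPM in controls. The groups did not overlap but came within about 1 CPM of each other, and the log2 fold change of 0.15 (standard error 0.054, 95% interval 0.028 to 0.26) had an unadjusted p = 0.019 and an adjusted p = 0.243 in edgeR. Atg7, the gene of the enzyme that activates both ATG12 and the ATG8 proteins, had 44.7, 48.7 and 50.3 CPM against 54.2, 50.6 and 52.0 CPM. All 3 challenged libraries lay below the controls, the nearest pair of libraries being almost level. Its log2 fold change was -0.13 (standard error 0.055, 95% interval -0.25 to -0.0058), with an unadjusted p = 0.0413 and an adjusted p = 0.331 in edgeR. Atg3, Atg5 and Atg16l1, which encode the ATG8-conjugating enzyme, the partner of ATG12 and the protein that places both on the membrane, had log2 fold changes of 0.012, 0.015 and -0.048, and their groups overlapped.

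The 5 ATG8 family genes all had log2 fold changes below 0 and none was called, with adjusted p-values from edgeR of 0.448 or more. Map1lc3b, which encodes the LC3B protein read in most autophagy assays, had 316, 333 and 302 CPM after CitH3+dsDNA and 328, 323 and 321 CPM in controls. The challenged libraries spread on either side of the controls, with a log2 fold change of -0.032 (95% interval -0.12 to 0.052). Map1lc3a had the lowest value of the family, -0.082 (95% interval -0.18 to 0.014), with 163, 182 and 172 CPM against 188, 183 and 176 CPM. Gabarap, Gabarapl1 and Gabarapl2, whose products act late in autophagosome closure and fusion, had log2 fold changes of -0.02, -0.043 and -0.016.

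Of the cargo receptor genes, Sqstm1 encodes p62, whose protein is used up by autophagy and whose gene is a target of the oxidative stress factor NRF2. Its levels were 1282, 1276 and 1244 CPM after CitH3+dsDNA and 1362, 1324 and 1272 CPM in controls. The highest challenged library lay above the lowest control, and the log2 fold change was -0.058 (95% interval -0.13 to 0.014, adjusted p = 0.477 from edgeR). Nbr1, whose product works with p62, had a log2 fold change of -0.002 (95% interval -0.081 to 0.077). Optn, the gene of a receptor for damaged mitochondria and bacteria, had one of 0.057 (95% interval -0.029 to 0.14), with 108, 104 and 109 CPM against 103, 104 and 101 CPM.

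**Figure D2:**
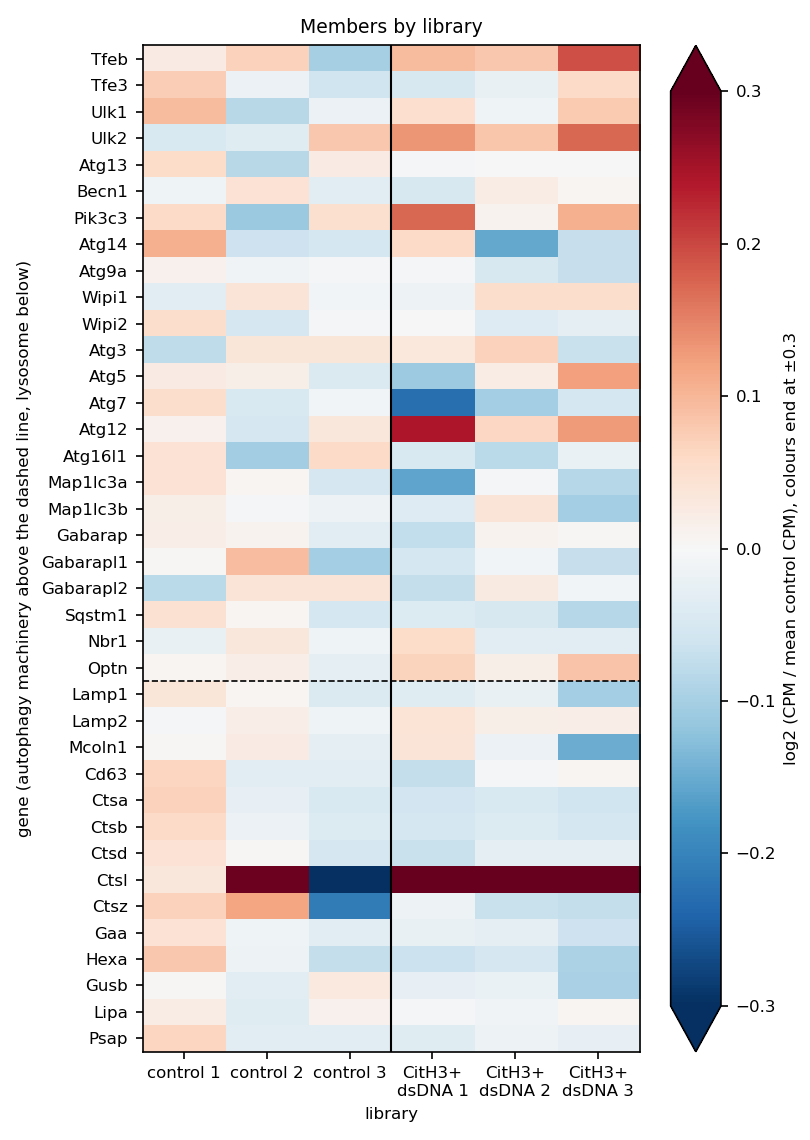
Level of each tested member (rows) in each library (columns), as the log2 ratio of its CPM to the mean CPM of the 3 controls, with colours that end at 0.3 in either direction. Ctsl is the only row with all 3 CitH3+dsDNA libraries beyond the end of the scale, and its controls also differ from each other, while the other rows show faint colours without a common step between the groups.

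Of the 15 lysosomal members 14 were tested, and Ctsl was called. Without it, the 13 others had log2 fold changes from -0.069 to 0.027 with a median of -0.041, and 12 of the 13 lay below 0, beside 50.6% of all genes tested. Under the other scalings 11 or 12 of the 13 lay below 0, with medians from -0.058 to -0.022. The median of all 14 tested, -0.04, was -0.017 without control replicate 1 and -0.0020 with control replicate 3 as the only control. None of the 13 had an unadjusted p-value under 0.05 in edgeR, none was called by DESeq2 or limma-voom, and none separated the groups. The summed level of the lysosomal members without Ctsl was 14911 to 15159 CPM after CitH3+dsDNA and 15001 to 15976 CPM in controls, and with Ctsl it was 16455 to 16675 CPM against 15186 to 16228 CPM. The sums without Ctsl overlapped, and the sums with it did not.

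Lysosomal membrane genes stayed within narrow bounds. Lamp1 encodes a glycoprotein that coats the inner face of the lysosomal membrane, and it had 2889, 2916 and 2758 CPM after CitH3+dsDNA and 3038, 2974 and 2875 CPM in controls. The groups overlapped, at -0.053 on the log2 scale (95% interval -0.12 to 0.018, adjusted p = 0.507 from edgeR). Lamp2, whose product is needed for fusion of autophagosomes with lysosomes, was the only one of the 13 above 0, at 0.027 (95% interval -0.04 to 0.093). Mcoln1, the gene of the lysosomal calcium channel TRPML1 that acts upstream of TFEB, had a log2 fold change of -0.041 (95% interval -0.15 to 0.068). Cd63, a tetraspanin of late endosomes and secreted vesicles, had one of -0.023 (95% interval -0.10 to 0.053).

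Among hydrolases outside the cathepsins, Gaa encodes the enzyme that breaks down lysosomal glycogen, Hexa a subunit of the enzyme that clears gangliosides, Gusb beta-glucuronidase, Lipa the acid lipase that frees cholesterol from lipoprotein esters, and Psap the precursor of the saposins. Hexa had the lowest value of these 5, with 1000, 1010 and 979 CPM after CitH3+dsDNA and 1106, 1035 and 995 CPM in controls. A control lay between challenged libraries, and the log2 fold change of -0.069 (95% interval -0.15 to 0.015) was not called (adjusted p = 0.47 from edgeR). Lipa was the most level, with 301, 300 and 303 CPM against 307, 295 and 305 CPM, and Gaa, Gusb and Psap had log2 fold changes of -0.037, -0.047 and -0.025.

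Ctsl encodes cathepsin L, a cysteine protease of the lysosome that can also be secreted and that degrades elastin and collagen. Its counts were 27638, 26720 and 28995 after CitH3+dsDNA and 4500, 5600 and 3433 in controls, which are 1524, 1516 and 1597 CPM against 252, 302 and 185 CPM. The groups lay far apart, with the challenged libraries close to each other and the controls widely spread. Mean levels were 1546 ± 44.6 CPM (SD, n = 3) after CitH3+dsDNA and 246 ± 58.6 CPM (SD, n = 3) in controls. This is a difference of 2.65 on the log2 scale (95% interval 2.38 to 2.92, standard error 0.12), with an adjusted p = 1.15e-08 from edgeR. The gene was called under all 16 alternatives tried, with log2 fold changes from 2.48 to 3.06 and adjusted p-values from 9.56e-38 with DESeq2 to 0.00958 with robust dispersion estimates. Among the genes called higher, 8 had a log2 fold change at least as large, Ctsl included.

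The controls of Ctsl were unusual in 2 measured ways. Their coefficient of variation was 23.8%, against a median of 3.15% over the 3727 genes with a mean of at least 1000 control counts, of which 13 had a larger one. For the 23 other members at that depth it was 0.800% to 6.77%. Control replicates 1 and 2 also had Ctsl counts that end in 00. Among called genes that changed by more than 0.5 on the log2 scale, 14 of 80 control counts of at least 1000 (17.5%) ended in 00, against 6 of 130 (4.62%) in the CitH3+dsDNA libraries. In control replicates 1, 2 and 3 they were 7 of 27, 5 of 27 and 2 of 26, and Ctsl itself is among these genes. Among genes that were not called, the shares were 123 of 10971 (1.12%) in controls and 101 of 10835 (0.932%) in the CitH3+dsDNA libraries. How these counts came about was not tested. Control replicate 3, whose Ctsl count does not end in 00, had the lowest Ctsl level of the controls (185 CPM). With it as the only control the log2 fold change of Ctsl was 3.06. A larger value than in the main fit was thus fixed by the choice of library. It cannot show how far the counts that end in 00 matter. That fit takes its spread from the CitH3+dsDNA libraries alone, so its call does not allow for the spread between the controls.

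**Figure D3:**
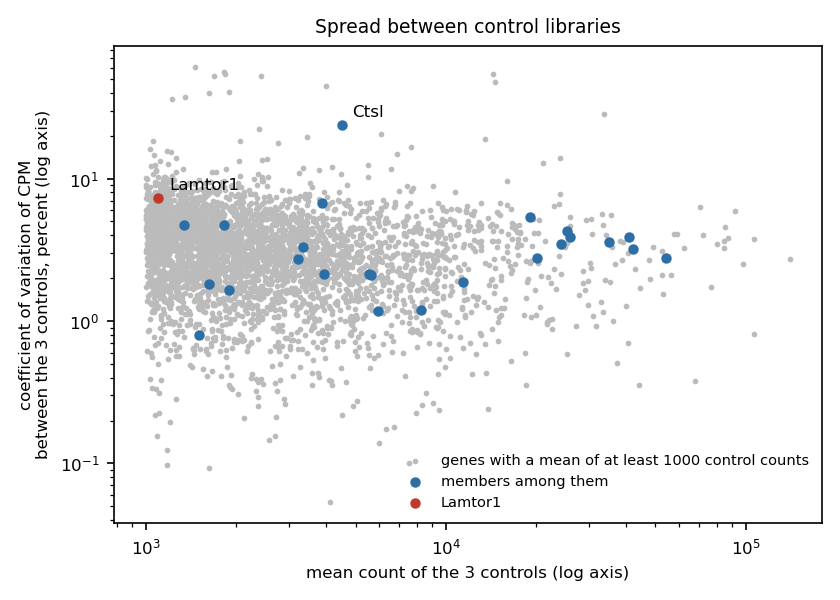
Coefficient of variation of CPM between the 3 controls (y axis, percent, log scale) against the mean control count (x axis, log scale) for the 3727 genes with a mean of at least 1000 control counts (grey), the members among them (blue) and Lamtor1 (red). Ctsl lies high above the other members at 23.8%, while Lamtor1 lies among the other genes.

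The Ctsl promoter held no CACGTG in its 300 bases. It held TGACNNNGC, the core of the antioxidant response element bound by NRF2, which was read on both strands and overlaps none of the E-box forms. Those letters occurred in 6 of the 33 member promoters (Ctsl, Ctsa, Ctsd, Gabarap, Map1lc3b and Ulk2; 18.2%) and in 12.1% of all promoters, and of the 6 genes Ctsl alone was called. The 150 bases before its start, at chr17:769954-770103 of GRCr8 on the plus strand, are shown because Ctsl carries the change among the members, with both matches in capitals.
Ctsl: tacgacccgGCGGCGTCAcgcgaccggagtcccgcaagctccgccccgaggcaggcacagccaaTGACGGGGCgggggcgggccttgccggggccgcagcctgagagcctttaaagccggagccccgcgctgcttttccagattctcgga

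None of the 4 other cathepsin members tested was called. Ctsb, which encodes a cysteine protease of the same family as cathepsin L, had 1850, 1865 and 1849 CPM after CitH3+dsDNA and 1995, 1895 and 1863 CPM in controls. Ctsd, the gene of the aspartic protease cathepsin D, had 2191, 2250 and 2253 CPM against 2364, 2302 and 2217 CPM. For both genes the ranges met or overlapped, with log2 fold changes of -0.048 (95% interval -0.12 to 0.021) and -0.04 (95% interval -0.11 to 0.029). Ctsa, whose product protects lysosomal galactosidase and neuraminidase, had a log2 fold change of -0.054 (95% interval -0.13 to 0.021). Ctsz, the gene of a carboxypeptidase, had one of -0.05 (95% interval -0.30 to 0.20) at 145 to 182 counts per library. Of the counts on the 6 cathepsin members, Ctsl held 22.1%, 21.7% and 22.7% in the CitH3+dsDNA libraries and 4.15%, 5.14% and 3.29% in controls.

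Ctsk encodes cathepsin K, the potent collagenase of osteoclasts, and was the member that did not pass the filter on low counts. It had 11, 5 and 11 counts after CitH3+dsDNA and 2, 2 and 1 counts in controls. All challenged libraries lay above the controls, at counts where a few reads decide the order. The summed 27 and 5 counts give a ratio of 5.58 after correction for library size, with an exact 95% interval of 2.12 to 18.6 that covers counting error only. Fitted without a filter, its adjusted p was 0.0874 in edgeR, and DESeq2 gave 0.288. It could be fitted under 7 of the 16 alternatives and was called under 1 of these, without CitH3+dsDNA replicate 2 (adjusted p = 0.0479 from edgeR). The adjusted p-values under the other 6 ran from 0.0874 to 0.499.

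**Figure D4:**
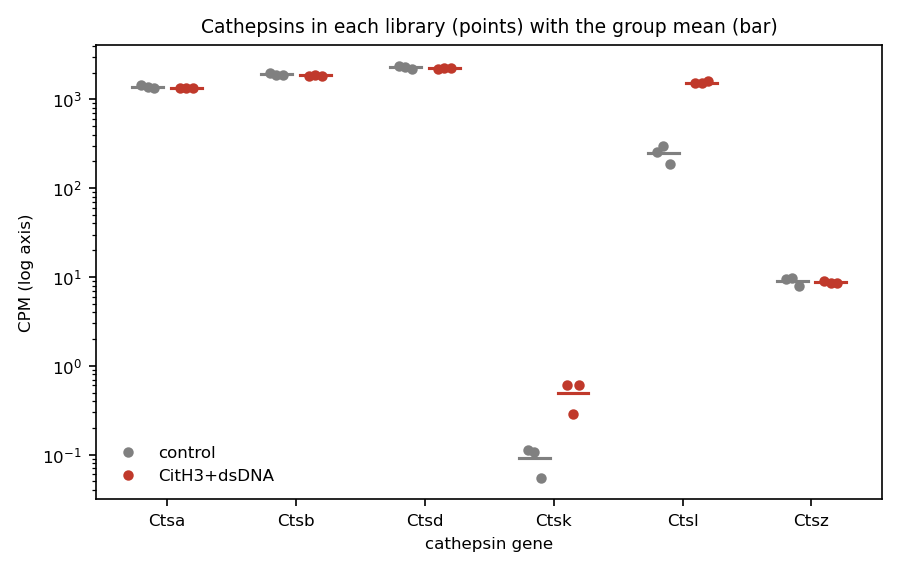
CPM (log axis) of the 6 cathepsin members in each library, with controls in grey, CitH3+dsDNA in red and a bar at each group mean. Ctsl separates widely, at 185 to 302 CPM in controls and 1516 to 1597 CPM after CitH3+dsDNA, Ctsk lies near the floor of a few counts, and the points of the other 4 genes lie at like heights in both groups.

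Wider lists of 126 further autophagy and lysosome genes were read beside the members. The table held 124 of these symbols, 117 genes were tested, 3 were called higher (Lamtor1, Fnip1 and Ids) and none lower, against 1.94% and 0.262% of all genes. The median log2 fold change of the 117 was -0.022, and 16 had an unadjusted p-value under 0.05, against 13.9% of all genes. Of the 24 other autophagy core genes and the 8 other selective autophagy receptors tested, none was called by edgeR, with 0 and 2 genes under an unadjusted p-value of 0.05. In these lists the largest absolute values were those of Rb1cc1, which encodes the FIP200 scaffold of the ULK complex (0.16, 95% interval -0.05 to 0.38), and Tax1bp1, a receptor gene (0.19, 95% interval 0.09 to 0.29, adjusted p = 0.0549 from edgeR). Tax1bp1 had 122, 126 and 123 CPM after CitH3+dsDNA and 102, 113 and 110 CPM in controls, without overlap, and was called under 5 of the 16 alternatives.

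Lamtor1 encodes the membrane anchor of the Ragulator complex, which docks mTORC1 to the lysosome. It had counts of 2741, 2970 and 2849 after CitH3+dsDNA and 1000, 1200 and 1102 in controls, which is 159 ± 8.84 CPM against 60.0 ± 4.36 CPM (SD, n = 3). The groups did not overlap, and as with Ctsl the counts of control replicates 1 and 2 end in 00. The difference was 1.40 on the log2 scale (95% interval 1.28 to 1.53, standard error 0.057) with an adjusted p = 3.41e-09 from edgeR, and the gene was called under all 16 alternatives, at 1.36 to 1.46. The other Ragulator genes tested, Lamtor2, Lamtor3, Lamtor4 and Lamtor5, had log2 fold changes of -0.065, -0.10, -0.026 and -0.11, and none was called. They were named after their values had been seen.

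Fnip1, whose product works with folliculin to signal nutrients at the lysosome, had 33.7, 35.8 and 35.9 CPM after CitH3+dsDNA and 28.9, 28.6 and 30.3 CPM in controls. The groups lay apart, and the difference was 0.26 on the log2 scale (95% interval 0.13 to 0.39), with an adjusted p = 0.0397 from edgeR. Ids encodes iduronate sulfatase, an enzyme of glycosaminoglycan breakdown, and had 113 CPM in each of the 3 CitH3+dsDNA libraries against 90.8, 97.5 and 104 CPM. The difference was 0.21 on the log2 scale (95% interval 0.11 to 0.32), with an adjusted p = 0.0394 from edgeR. Both calls were near the threshold, as Fnip1 was called under 7 and Ids under 8 of the 16 alternatives, each under 1 of the 6 that leave out a library, with adjusted p-values of up to 0.161 for Fnip1 and 0.174 for Ids in those 6.

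The V-ATPase, the proton pump that acidifies the lysosome, was represented by 17 genes, of which none was called by edgeR. Of the 17, 12 lay below 0, beside 50.6% of all genes tested. The share of all genes below 0 moved with the scaling, from 43.2% (library size alone) to 56.8% (upper quartile). The split of the 17 is not given under other scalings. An unadjusted p-value under 0.05 was found for 5 of the 17, against 13.9% of all genes. Of these 5, the subunit genes Atp6v0e1, Atp6v1d, Atp6v1e1 and Atp6v1g1, named after their values had been seen, lay below 0, at -0.068 to -0.096 on the log2 scale, and Atp6ap2 lay above. All challenged libraries lay below the controls for 5 of the 17 genes, against 8.43% of all genes, and above them for 1, against 10.7%. The largest absolute value of the list was that of Atp6ap2, an accessory subunit gene, at 0.14 (95% interval 0.056 to 0.23, adjusted p = 0.0994 from edgeR). Cst3, which encodes the secreted cathepsin inhibitor cystatin C, had 776, 813 and 755 CPM after CitH3+dsDNA and 864, 849 and 796 CPM in controls. These groups overlapped in a single pair of libraries, and the log2 fold change was -0.098 (95% interval -0.18 to -0.012, adjusted p = 0.286 from edgeR). It was the largest absolute value of the 6 proteases and inhibitors tested, none of which was called.

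In the other lists the genes named had few counts or a single library that stood apart. M6pr, which encodes the small mannose 6-phosphate receptor that sorts enzymes to the lysosome, had counts of 179, 196 and 158 after CitH3+dsDNA and 480, 234 and 209 in controls. Control replicate 1 stood far above the rest, and its value of -0.77 on the log2 scale was not called (adjusted p = 0.198 from edgeR). Acp5, an acid phosphatase gene of osteoclasts, had 6 to 15 counts per library, Cln3, a lysosomal membrane protein gene, 30 to 43, and Lgals3, a galectin gene that marks broken lysosomes, 6 to 14. Their log2 fold changes of 0.47, 0.21 and 0.12 were not called, and their groups overlapped.

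**Figure D5:**
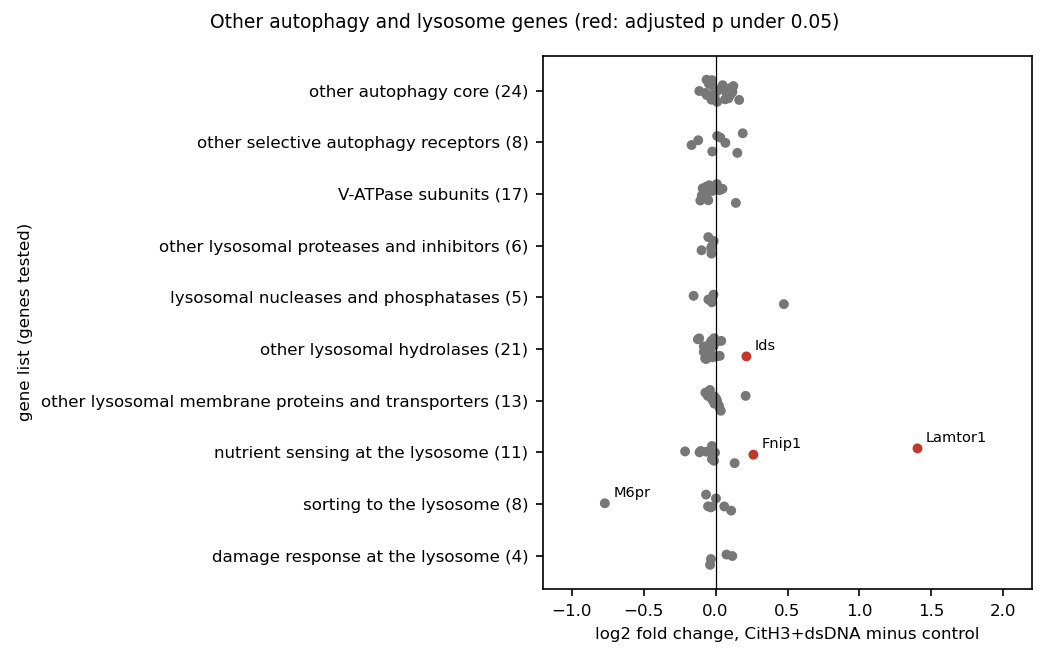
Log2 fold change of CitH3+dsDNA over control (x axis) for the 117 other autophagy and lysosome genes tested, 1 point per gene, by list (y axis, with the number tested); red marks an adjusted p-value under 0.05, points are spread vertically only to be seen, and 1 gene that was not called is not shown. Lamtor1 stands apart at 1.40, Ids and Fnip1 are red close to the main cloud, and M6pr lies to the left without a call.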

How the data were processed

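RNA of 3 CitH3+dsDNA and 3 control RASMC cultures was measured, and samples were grouped by their labels. The authors sequenced stranded mRNA libraries and deposited raw counts per gene symbol, not normalized. The study's methods name TopHat on the Rnor6.0 build, HTSeq and DESeq2, while the submitters' processing notes name TopHat2 2.1.1, Cufflinks 2.2.1 and Cuffdiff. The strand setting of the counting was not given in the sources used here, so overlapping, antisense or near-identical genes can share reads. All 6 columns were used.

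Using edgeR 4.0.16 (R 4.3.3), low counts were removed by filterByExpr, TMM factors were computed and 12591 genes were compared by the two-sided quasi-likelihood test. Benjamini-Hochberg adjusted p-values below 0.05 were called. The common biological coefficient of variation was 0.0585. Intervals of fold changes cover the spread between these libraries.

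The 39 members and all lists were chosen with earlier results of these data known. The text names all members, each called gene of the wider lists and, in each list, the tested gene with the largest absolute log2 fold change; genes outside this rule are said to be named after their values were seen. A gene chosen by this rule is not reported here. The alternatives were leaving out each library, a replicate block, robust dispersion estimates, no filter or a minimum of 10 counts per library, other scalings (size factors of DESeq2, upper quartile, library size alone) and other tools (DESeq2 1.42.0 and limma-voom, limma 3.58.1). Control replicate 3 as the only control was added after the counts had been seen, as were the checks of last digits and of the spread between controls. Promoters were RefSeq's for GRCr8, a later assembly than the one used for the counts.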

Additional observations from a re-analysis of the deposited data

How the results depend on the processing

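All 608 values of the 38 tested members under the 16 alternatives stayed on the same side of the threshold, and no called value changed sign. The 24 autophagy members had 0 calls under each alternative. The lysosomal members had 1 call, or 2 without CitH3+dsDNA replicate 2, where Ctsk passed, a range of 1 to 2 when libraries were left out. Over all genes, 277 were called, 212 to 376 with all libraries and 164 (without CitH3+dsDNA replicate 1) to 357 (without control replicate 3) when a library was left out, with 184 without control replicate 1 and 188 with control replicate 3 as the only control. The 3 calls in the wider lists became 1 with upper-quartile scaling, 5 with robust dispersion estimates and 1 to 4 when a library was left out, 1 in 5 of those 6 cases. Of 189 values of the genes chosen from the wider lists, 17 lost the call, 7 gained it and none was reversed. M6pr was called only without control replicate 3 (adjusted p = 0.0371 from edgeR).

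Replicate numbers did not pair the libraries, as same-numbered libraries had correlations of -0.0458, 0.00452 and 0.0355. With the replicate number as a block, 212 genes were called, 0 autophagy members, 1 lysosomal member and 1 of the wider lists. Depth limited Ctsk, Acp5, Cln3 and Lgals3, where few counts leave wide intervals.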

Other observations

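A few lysosome genes not described above were named after their values had been seen. Gpnmb, which encodes a glycoprotein of lysosome-rich cells such as macrophages and melanocytes, ranked 5 of all symbols by total count, with 505470 counts over the 6 libraries. Cd68, a lysosomal glycoprotein gene used as a macrophage marker, had 89 counts in all. Ctsc, the gene of the dipeptidyl peptidase cathepsin C, and Calcoco1, an autophagy receptor gene, had 0 counts in every library. Ctsf, another cysteine cathepsin gene, had 3105, 3158 and 3199 counts after CitH3+dsDNA and 3331, 3364 and 3160 in controls. Ctss, the elastolytic cathepsin gene of macrophages, had 3 to 9 counts per library. Ctsll3, a gene related in sequence to Ctsl, had 0 to 4 counts per library.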
